A study of Ciona robusta with 16 samples.

Results

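The mRNA of the unfertilized egg of the ascidian *Ciona robusta* was compared with that of the egg shortly after fertilization. All libraries that carry these stage names in the labels and in the count table were taken, which gave 4 of the 16 libraries of a developmental series: 2 of the unfertilized egg (unfE, 0 h post fertilization) and 2 of the fertilized egg (fertE, 0.4 h post fertilization). Both groups were wild type and whole, and each library was made from about 150 pooled eggs or embryos, so variation between single eggs was averaged. The eggs were freed of their chorion and fertilized *in vitro*. Per stage, the fertilization batch that also served the proteomic measurements provided 1 replicate and a separate developmental time course provided the other. Which replicate number belongs to which batch was not stated in the sources used here. RNA was selected by its poly(A) tail, so a change in tail length and a change in copy number cannot be told apart. Likewise, in such bulk samples fewer cells of a type and less RNA per cell cannot be told apart.

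A mature ascidian egg is transcriptionally quiet and holds a store of maternal mRNA and protein. Sperm entry sets off waves of calcium in the cytoplasm, contraction of the actin cortex, exit from meiosis and the start of the cleavage cell cycles, all before the zygotic genome is broadly transcribed. In many animals, maternal mRNAs are at this time translated, masked, stored or marked for decay, and changes in tail length are a known part of this control. The comparison therefore asks which mRNAs already differ in abundance within the first minutes of development.

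The 4 libraries held 25.8 to 32.7 M estimated counts. Levels are given as TPM, a transcript abundance corrected for transcript length and library size, and genes with a TPM of 2 or more were counted as detected. Of 18388 genes in the KY21 gene set, 9305 and 9558 were detected in unfE replicates 1 and 2, and 9352 and 9455 in fertE replicates 1 and 2. Egg and germ line mRNAs were present in every library. DDX4, the match of the germ line helicase Vasa, had a TPM of 176 and 219 in unfE and of 180.5 and 208.5 in fertE. PIWIL1, an Argonaute protein of the piRNA pathway, was at 159 and 169 in unfE and at 166 and 190.5 in fertE. H1-8, the oocyte linker histone, was at 53.0 and 51.6 in unfE and at 55.6 and 57.9 in fertE, and CCNB3, a B-type cyclin, was at 180.4 and 233 in unfE and at 228 and 235 in fertE. These 4 markers overlapped between the stages or differed little. APOB, the lipoprotein gene on the same marker list, was low, at 2.73 and 1.54 in unfE and at 3.69 and 1.40 in fertE, so it did not mark these eggs.

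Each egg library differed from the other 3 in genes of its own, and unfE replicate 2 had the most genes above the others. In unfE replicate 2, 346 genes were at least 2-fold above all 3 other egg libraries in CPM, the counts scaled to library size. The corresponding numbers were 122 in unfE replicate 1, 120 in fertE replicate 1 and 136 in fertE replicate 2. Genes at least 2-fold below the other 3 were more frequent in the fertE libraries (162 and 166) than in the unfE libraries (98 and 99). In unfE replicate 1, rows whose identifier carries UAContig in place of a chromosome made up 5.21% of all TPM, against 1.72% in unfE replicate 2, 0.83% in fertE replicate 1 and 2.10% in fertE replicate 2. KY21.UAContig32.30 alone had a TPM of 9011 in unfE replicate 1, and it was at 0 in unfE replicate 2, at 65.6 in fertE replicate 1 and at 7.21 in fertE replicate 2. KY21.UAContig13.19 had 7623 in unfE replicate 1, 838 in unfE replicate 2, 173 in fertE replicate 1 and 868 in fertE replicate 2. By their means these rows were among the most abundant of the unfertilized egg, but 1 library set that rank, and no difference between the stages is read from them.

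Most egg mRNAs differed little between the stages. The differences were quantified within each replicate number, as the log2 ratio of fertE over unfE in CPM scaled with TMM factors, and 14623 KY21 genes had enough counts to be tested. The median ratio was 0.0 in both replicate numbers. Of 7973 genes with a mean TPM of at least 10 over the 4 libraries, 6289 (78.9%) stayed within 1.2-fold in both replicate numbers and 7805 (97.9%) within 1.5-fold. In these genes the median absolute log2 difference between stages was 0.10 in replicate 1 and 0.10 in replicate 2. Between the replicates of a stage it was 0.18 in unfE and 0.20 in fertE. A gene of the egg thus typically differed less between fertE and unfE of the same replicate number than between replicates of either stage. Over all tested genes, Pearson's r of log2 CPM was 0.992 between unfE and fertE in replicate 1 and 0.986 in replicate 2, and 0.978 between the replicates of each stage. The genes share libraries and are not independent, so no p is given.

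**Figure D1:**
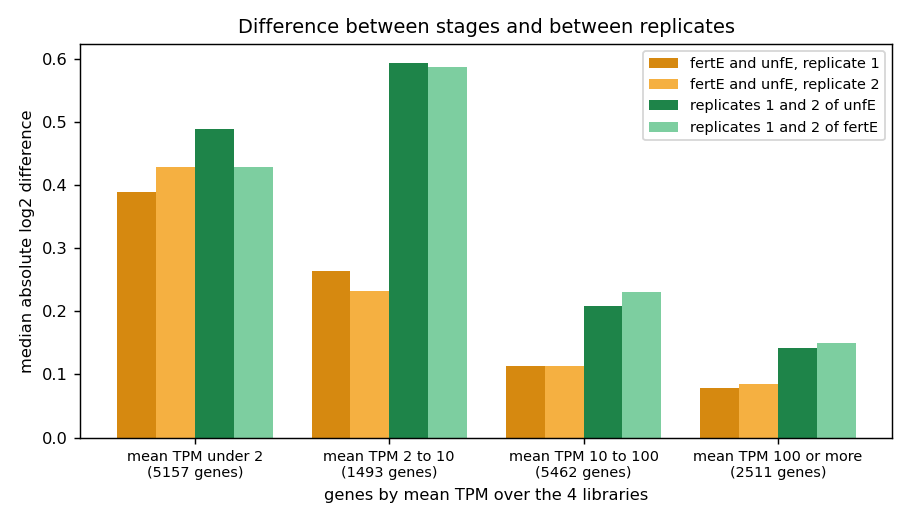
Median absolute log2 difference in CPM per gene (y axis) for genes grouped by their mean TPM over the 4 libraries (x axis). Orange bars compare fertE with unfE within a replicate number and green bars compare the replicates of a stage. For genes with a mean TPM of 10 to 100 the orange bars are at 0.11 and the green bars at 0.21 and 0.23.

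The most abundant mRNAs illustrate this. KY21.Chr4.92, for which no symbol was at hand, had a TPM of 5372 and 5873 in unfE and of 6154 and 5708 in fertE, with a log2 fold change of 0.01 ± 0.24 (SE). SLC25A4, the ADP/ATP carrier of the inner mitochondrial membrane, had 2369.5 and 2588 in unfE and 2655 and 2681 in fertE, with a log2 fold change of 0.04 ± 0.11 (SE). KY21.Chr6.317 had 2238 and 2768 in unfE and 2445 and 2978 in fertE. In none of these 3 genes was the difference between stages beyond the spread between replicates.

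A test across all genes gave few differences. In edgeR's quasi-likelihood test with Benjamini-Hochberg adjustment, 1 of 14643 tested rows passed an adjusted p of 0.05, which is 0.00683% of the rows, and it was lower in fertE. At an unadjusted p of 0.05, 278 rows were lower (1.90%) and 78 higher (0.533%). DESeq2 called 38 of 13007 rows (0.292%), all lower in fertE, and limma on log2(TPM+1) called 0, with 140 rows at an unadjusted p of 0.05. The edgeR model contained all 16 libraries. With the 4 egg libraries alone it made no call and gave 89 of 11001 rows at an unadjusted p of 0.05. With a term for the replicate number added (a replicate block), these 4 libraries gave 331 of 11001 rows at that level and again no call. For scale, the next step of the series, from fertE to the 16-cell embryo (cell16), shares the fertE libraries and gave 318 calls (2.17%) in the same model.

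The gene called was KY21.Chr11.627, for which no symbol was at hand. It had a TPM of 1.12 and 2.60 in unfE and of 0.11 and 0.11 in fertE, so the stages did not overlap. Its mean of 1.86 in unfE was under the detection limit of 2, which only unfE replicate 2 exceeded among the egg libraries. In estimated counts it had 29.3 and 55.3 in unfE and 2.9 in each fertE library. It fell by 3.97 on the log2 scale (SE 0.43, edgeR adjusted p = 0.0071). From the summed counts, 85 against 6, scaled by the summed library totals of 55.0 M and 63.0 M, the ratio of unfE over fertE was 16.2. Its 95% exact interval of 7.16 to 45.5 covers counting error only, and not the choice of this gene by its p in the same libraries. The gene stayed low in cell16, at 0.10 and 0.14, and had a TPM of 30.6 and 29.1 in the late neurula and of 23.6 and 23.4 in the larva. The call was lost without either fertE library (edgeR adjusted p = 0.16 without replicate 1 and 0.13 without replicate 2), and it was kept without either unfE library.

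Direct counts at 2-fold leaned toward lower levels after fertilization, mostly in genes higher in unfE replicate 2 than in unfE replicate 1. At least 2-fold in both replicate numbers, 161 genes (1.10% of 14623) were lower and 48 (0.328%) higher in fertE, while 114 (0.780%) were 2-fold off in opposite directions. Replicate 2 of unfE exceeded replicate 1 in 136 of the 161 lower genes, against 6876 of all 14623 tested genes. In either direction most of the genes 2-fold off in both replicate numbers were scarce. Of the 161 lower genes, 83 had a mean TPM under 1 in the higher stage, and of the 48 higher genes, 40 did. Among the 8068 tested genes that reached a mean TPM of 10 in their higher stage, 16 were 2-fold lower (0.198%) and 1 was 2-fold higher (0.0124%) in both. At any size of change, by contrast, more genes were higher in both replicate numbers (24.8%) than lower (18.4%), and both fertE libraries lay above both unfE libraries in 9.31% of genes and below them in 8.43%. Over all tested genes this order reversed with RLE factors (1244 above and 1333 below). Among genes that reached a mean TPM of 10 these shares were 11.2% and 5.65%.

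**Figure D2:**
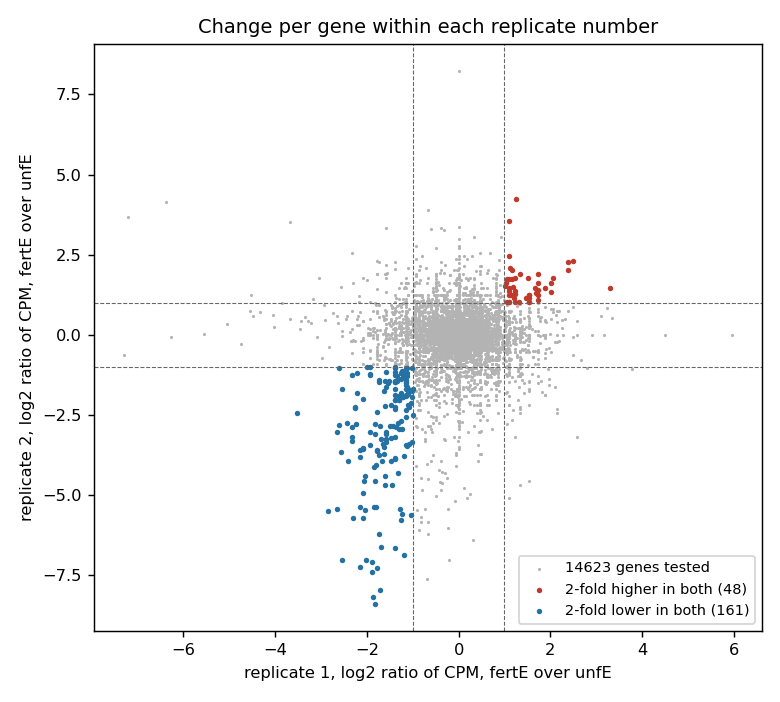
Log2 ratio of CPM, fertE over unfE, in replicate 1 (x axis) and replicate 2 (y axis), with 1 point per tested gene and dashed lines at 2-fold. The 161 blue points, 2-fold lower in both, reach further down in replicate 2 than the 48 red points, 2-fold higher in both, reach up.

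The 16 genes that were 2-fold lower in both replicate numbers and well expressed also differed between the unfE replicates. In all 16 the highest library was unfE replicate 2. Its TPM was 3.72 to 9.09 times that of unfE replicate 1 (median 4.61). In 12 of the 16, unfE replicate 1 was under a TPM of 10, so they met the level for selection only through unfE replicate 2, and this ratio is a description. The ratio of fertE over unfE in TPM ranged from 0.13 to 0.45 in replicate 1 (median 0.28) and from 0 to 0.081 in replicate 2 (median 0.0055). The genes were thus high in unfE replicate 2, intermediate in unfE replicate 1 and low in both fertE libraries, an order that the selection partly sets. All 16 had an unadjusted edgeR p under 0.05 and none passed the adjustment (adjusted p 0.20 to 1). The genes were chosen for their fall in these same libraries, so their p-values are no separate evidence of it. DESeq2 called 4 of them and gave no adjusted p for 2.

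Among these were genes of the actin cytoskeleton. GSN, the match of gelsolin, which severs and caps actin filaments in a calcium-dependent way, had a TPM of 2.0 in unfE replicate 1, 18.1 in unfE replicate 2, 0.45 in fertE replicate 1 and 0.066 in fertE replicate 2. The stages did not overlap, which the rule for naming it required. Its log2 fold change was -5.31 ± 1.01 (SE, edgeR adjusted p = 0.25, DESeq2 adjusted p = 5.4e-06). It was at 0.20 and 0.055 in cell16. An ACTG1 match, KY21.Chr11.690, a cytoplasmic actin, had 9.14 and 36.4 in unfE and 2.12 and 2.55 in fertE, and then 0.52 and 0.23 in cell16. Its log2 fold change was -3.31 ± 0.85 (SE, edgeR adjusted p = 0.63, DESeq2 adjusted p = 0.046). Unlike GSN it stayed low, with a mean TPM of 0.86 in the larva.

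Other matches with symbols had different roles. EEF1A1 (KY21.Chr1.2151), an elongation factor that brings aminoacyl-tRNA to the ribosome, had 2.24 and 17.8 in unfE, 0.30 and 0.33 in fertE, and a mean of 0.069 in the larva. Salmon divides reads between similar copies, so levels of actin and elongation factor genes are uncertain. TXN (KY21.Chr1.1045), a thioredoxin that reduces protein disulfides, had 4.77 and 19.0 in unfE and 0.93 and 0 in fertE. The other TXN match, KY21.Chr11.60, was at 43.3 and 39.7 in unfE and at 51.4 and 41.9 in fertE, so the copies of this symbol did not move together. PLA2G4A (KY21.Chr10.695), a cytosolic phospholipase that releases arachidonic acid from membranes, had 8.13 and 39.5 in unfE and 2.40 and 0.087 in fertE.

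The 4 genes of the 16 with the highest TPM in unfE had no symbol. KY21.Chr3.1675 had a TPM of 65.3 in unfE replicate 1, 257 in unfE replicate 2, 16.9 in fertE replicate 1 and 5.62 in fertE replicate 2. Its log2 fold change was -3.83 ± 0.75 (SE, edgeR adjusted p = 0.26, DESeq2 adjusted p = 3.0e-05). KY21.Chr9.1089 had 50.8, 189, 14.8 and 1.06 in the same order of libraries. KY21.Chr1.2011 had 15.7, 72.7, 5.02 and 0.13, and KY21.Chr3.1404 had 11.0, 50.6, 3.34 and 0.099. In all 4 the fertE libraries lay below the unfE libraries without overlap, as they did in all 16. The choice of genes 2-fold lower in both replicate numbers favours this order. For KY21.Chr3.1675 and KY21.Chr9.1089 the naming rule also required it. The lack of overlap is therefore no separate evidence of a fall. KY21.Chr4.715, which DESeq2 also called, had 4.69, 27.4, 1.15 and 1.12, with an edgeR adjusted p of 0.20 and a DESeq2 adjusted p of 2.6e-05.

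**Figure D3:**
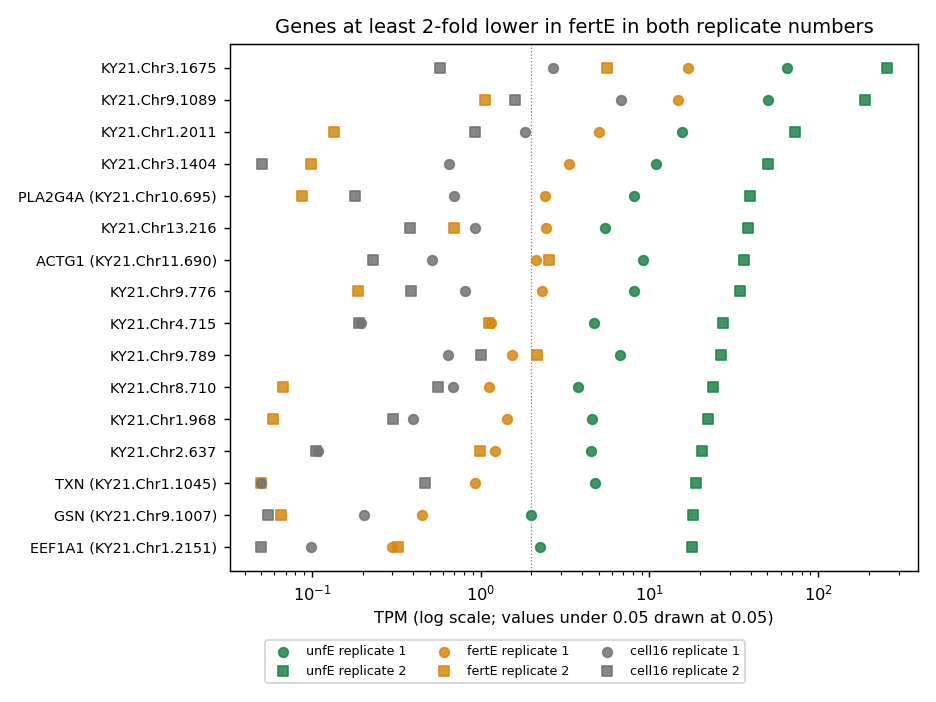
TPM (x axis, log scale) of the 16 genes with a TPM of at least 10 in unfE that were 2-fold lower in fertE in both replicate numbers, with 1 point per library. Green points are unfE, orange fertE and grey cell16, circles replicate 1 and squares replicate 2, and the dotted line marks the detection limit of 2. The green squares (unfE replicate 2) are the highest point of every gene, from 17.8 to 257.

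After the 16-cell stage the 16 genes went separate ways. Of the 16, 4 had a mean TPM of at least 2 in fertE, 1 in cell16, 2 in the initial gastrula, 5 in the late neurula and 10 in the larva. GSN, KY21.Chr3.1675 and KY21.Chr9.1089 were high again in the larva, with mean TPMs of 27.3, 118.9 and 118.8. The ACTG1, EEF1A1, TXN and PLA2G4A matches were under 2 there. Of all 161 genes 2-fold lower in both, 56 were detected by their mean in unfE, 5 in fertE, 6 in cell16, 34 in the initial gastrula and 106 in the larva. Over all 14623 tested genes these numbers were 9485, 9419, 9443, 10426 and 11814.

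**Figure D4:**
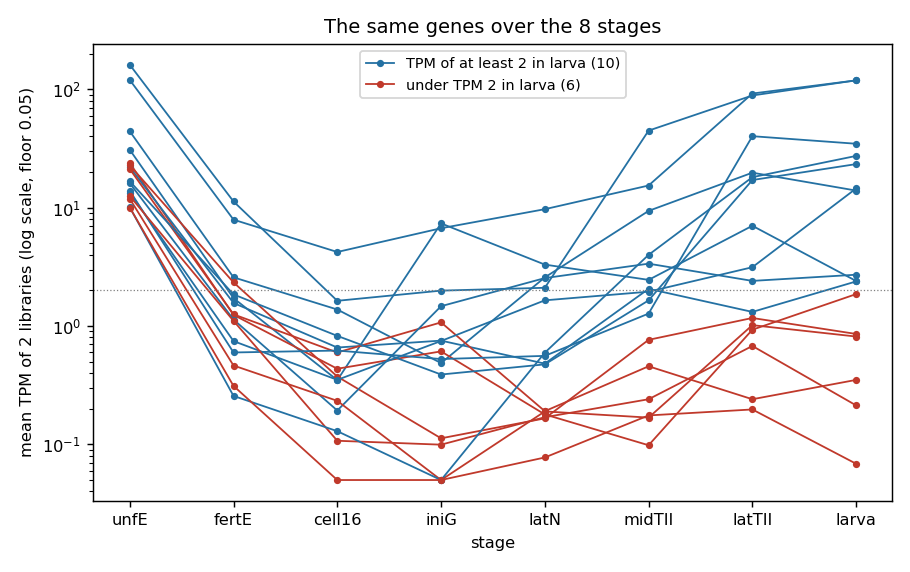
Mean TPM of 2 libraries (y axis, log scale) at the 8 stages (x axis: the egg stages, cell16, initial gastrula iniG, late neurula latN, middle and late tailbud midTII and latTII, and larva) for the 16 genes lower in fertE, with 1 line per gene. Blue lines are the 10 genes with a mean TPM of at least 2 in the larva, red lines the other 6, and the dotted line marks the detection limit of 2. Only the KY21.Chr9.1089 line stays above that limit in cell16.

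Because unfE replicate 2 led in these genes, the counts were also taken without each unfE library. In edgeR, 20 rows were called without unfE replicate 1, all lower in fertE, and 1 without unfE replicate 2, the same number as with all libraries. Of the 20, 16 were among the 38 DESeq2 calls (80.0% of the first and 42.1% of the second). Without unfE replicate 2 the log2 fold change of GSN was -3.11, that of KY21.Chr4.715 was -2.19 and that of KY21.Chr3.1675 was -2.66, each with an edgeR adjusted p of 1. Without fertE replicate 1 the log2 fold change of GSN was -7.28 and that of KY21.Chr3.1675 was -4.89, both with an edgeR adjusted p of 0.25. Of the 38 genes that DESeq2 called, 36 were higher in unfE replicate 2 than in unfE replicate 1, against 6876 of all 14623 tested genes. Of the 38, 28 were 2-fold lower in both replicate numbers, against 1.10% of all tested genes. These sets all draw on the same egg libraries, so their overlaps are no separate evidence.

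The levels of other cell types' marker lists were compared over the same libraries. The summed TPM of a list of blood and immune genes, assembled after the values had been seen, was 1811 and 2042 in unfE and 1981 and 2058 in fertE. Of its 34 members, 25 were detected in all 4 libraries, C6.2 was at 0 in all 4, and none was 2-fold off in both. The sum was 190 and 194 in unfE and 209.7 and 183 in fertE for the muscle list, 475 and 554 in unfE and 548 and 578 in fertE for the neuron list, and 147 and 190 in unfE and 155 and 182 in fertE for the larval epidermis and matrix list. No list member of muscle, neuron or larval epidermis and matrix was 2-fold off in both replicate numbers. At any size, however, 8 of the 14 larval epidermis and matrix genes were lower in both (57.1%, against 18.4% of all tested genes). Of the 14, 4 lay below without overlap in CPM scaled with TMM factors (28.6%, against 8.43%). Among these 4, MATN2, a matrilin of the extracellular matrix, overlapped in TPM, at 25.7 and 28.9 in unfE and 25.5 and 26.2 in fertE. TFF1 overlapped in TPM as well, at 19.7 and 22.6 in unfE and 19.7 and 21.3 in fertE. COL12A1 (0.56 and 0.53 in unfE, 0.34 and 0.49 in fertE) and HMCN1 (0.39 and 0.47, then 0.25 and 0.32) were under the detection limit of 2. The part of other cells in the lower genes was not tested.

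Other lower genes with a symbol were scarcer. SH3BP4, an adaptor of endocytosis, had a TPM of 1.29 and 4.01 in unfE and of 0.60 and 0.34 in fertE, and then rose again to 4.02 and 5.17 in cell16. The difference between unfE and fertE had an edgeR adjusted p of 0.20 and a DESeq2 adjusted p of 2.0e-05. The increase from fertE to cell16 had an edgeR adjusted p of 0.0018 and a log2 fold change of 3.28. That test uses the same fertE libraries whose low values led to the choice of SH3BP4, so it is not independent of that choice. The lower cell16 level, 4.02, was close to the 4.01 of unfE replicate 2. BLVRB, the match of biliverdin reductase B, had 1.48 and 1.84 in unfE and 0.51 and 0.16 in fertE, without the excess in unfE replicate 2 seen above (edgeR adjusted p = 0.49, DESeq2 adjusted p = 0.0060). PKHD1L1, a large membrane protein, had 1.44 and 4.62 in unfE and 0.62 and 0.70 in fertE. ABAT, which breaks down the transmitter GABA, had 2.39 and 6.48 in unfE and 1.12 and 0.53 in fertE, and ITGB1 (KY21.Chr10.1157), an integrin beta chain, had 1.69 and 7.38 in unfE and 0.71 and 0.33 in fertE.

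Another 10 genes that reached a mean TPM of 10 were at least 2-fold higher in unfE replicate 2 than in all 3 other egg libraries. Their log2 ratios ranged from -1.0 to -0.12 in replicate 1 and from -7.62 to -1.15 in replicate 2, so they missed the 2-fold limit only in replicate 1, and edgeR called none of them while DESeq2 called 1. CRIP1 (KY21.Chr11.1090), a LIM domain protein chosen here after its values were seen, had a TPM of 11.3 and 45.2 in unfE and of 11.2 and 12.8 in fertE. KY21.Chr8.1048, the gene DESeq2 called, had 5.04 and 21.2 in unfE and 2.67 and 1.96 in fertE (DESeq2 adjusted p = 5.8e-04).

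The next genes with a symbol in the ranking by the smaller log2 ratio differed less. HERC1, a giant ubiquitin ligase, had a TPM of 38.8 and 50.8 in unfE and of 28 and 39.1 in fertE, with a log2 fold change of -0.48 ± 0.19 (SE, edgeR adjusted p = 1). TICRR, needed to start replication origins, had 80.7 and 90.4 in unfE and 64.3 and 74.9 in fertE, with a log2 fold change of -0.36 ± 0.18 (SE). In HERC1 fertE replicate 2 reached a TPM above that of unfE replicate 1, although the stages did not overlap in CPM scaled with TMM factors, and neither gene passed the test.

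Higher levels after fertilization were small as well. The 15 genes named by rank among those above both unfE libraries had log2 fold changes of 0.34 to 1.39, and their smallest unadjusted edgeR p was 0.063. KY21.Chr14.173 was the only gene with a TPM of at least 10 that was 2-fold higher in both replicate numbers. It had a TPM of 16.4 and 12.1 in unfE and of 41.5 and 38.0 in fertE, with 39.3 and 23.6 estimated counts in unfE and 97.2 and 93.3 in fertE. Its log2 fold change was 1.39 ± 0.68 (SE, edgeR adjusted p = 1), and it was at 70.9 and 59.5 in cell16. The stages did not overlap, which the ranking required, and its replicates were far apart in the late neurula (120.4 and 40.3).

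The highest ranks with a symbol included ribosomal and nuclear proteins. RPL24 (KY21.Chr6.507), a protein of the large ribosomal subunit, had a TPM of 10.2 and 10.6 in unfE and of 15.2 and 17.2 in fertE, with a log2 fold change of 0.57 ± 0.61 (SE). RPL12 had 25.5 and 35.2 in unfE and 36.0 and 53.6 in fertE. TAF10, a subunit of the general transcription factor TFIID, had 41.7 and 56.5 in unfE and 60.6 and 76.4 in fertE. SNRPC, a protein of the U1 splicing particle, had 125 and 134 in unfE and 165 and 179 in fertE, with a log2 fold change of 0.34 ± 0.18 (SE). SYK, a non-receptor tyrosine kinase, had 13.1 and 17.5 in unfE and 21.0 and 21.8 in fertE. The ranking took only genes in which both fertE libraries lay above both unfE libraries, so their shared direction was set by the choice. The log2 ratios of these genes were 0.29 to 0.65, and edgeR's adjusted p was 1.

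Few genes crossed the detection limit in both replicates. Of 18388 genes, 17 (0.0925%) went from under a TPM of 2 in both unfE libraries to at least 2 in both fertE libraries, and 26 (0.141%) went the other way. The 5 highest of the 26 were KY21.Chr4.715, KY21.Chr8.710, KY21.Chr1.968, TXN (KY21.Chr1.1045) and KY21.Chr2.637, all among the 16 genes above. The higher genes of the 17 were at low levels. KY21.Chr5.170 had a TPM of 1.58 and 0 in unfE and of 4.64 and 5.86 in fertE, and a mean of 0.21 in cell16. KY21.Chr7.593 had 0 and 0.83 in unfE and 3.89 and 3.08 in fertE, and others, such as KY21.Chr5.728 (1.86 and 1.93 in unfE, 2.25 and 3.44 in fertE), passed the limit by a small step.

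The genes of the egg's known functions were followed in lists of closest human or frog matches. The only gene that edgeR called had no symbol, so no list could hold a called gene. The absence of calls in a list is therefore not a result about its function. In the list of egg activation and calcium, which holds channels, pumps, kinases and calcium-binding proteins, none of 42 tested genes passed the test. Of the 42, 18 (42.9%) were higher and 4 (9.52%) lower in both replicate numbers at any size, against 24.8% and 18.4% of all tested genes, and the median log2 fold change was 0.05 against 0.00 over all genes. NCS1, a neuronal calcium sensor, was the only gene on any list that was 2-fold higher in both. It had a TPM of 0.13 and 0.077 in unfE and of 0.52 and 0.80 in fertE, with a log2 fold change of 2.54 ± 0.58 (SE, edgeR adjusted p = 0.49), and it stayed under the detection limit. CALU, a calcium-binding protein of the secretory pathway, had 59.9 and 62.6 in unfE and 72.1 and 81.9 in fertE, without overlap (edgeR adjusted p = 1).

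In the list of M-phase and cell cycle control, none of 39 tested genes passed the test, 12 were higher and 2 lower in both replicate numbers, and the median log2 fold change was 0.01. ANAPC4, a subunit of the anaphase-promoting complex that ends M phase, had a TPM of 44.4 and 54.5 in unfE and of 60.9 and 58.6 in fertE. ZW10, a kinetochore protein of the spindle checkpoint, had 128.3 and 128.5 in unfE and 113 and 131 in fertE. Of the 41 DNA replication genes 11 were higher and 9 lower in both, and of the 59 genes of centrosome and spindle 10 were higher and 15 lower. PCNT, a scaffold of the pericentriolar material, had 20.2 and 16.2 in unfE and 8.40 and 16.4 in fertE, so its lower mean rested on fertE replicate 1.

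**Figure D5:**
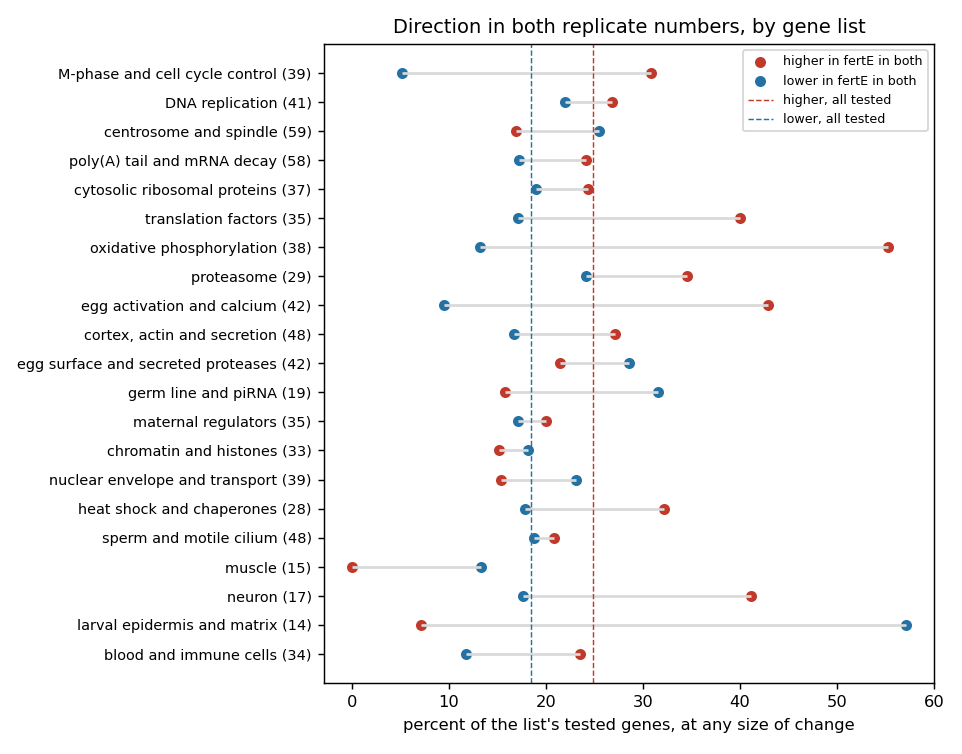
Percent of each list's tested genes (x axis) that were higher (red) or lower (blue) in fertE in both replicate numbers at any size of change, with the number tested in brackets. Dashed lines give the same shares over all tested genes, 24.8% higher and 18.4% lower. The lists spread on both sides of the lines, with oxidative phosphorylation at 55.3% higher and larval epidermis and matrix at 57.1% lower, and most changes behind these shares were small.

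Oxidative phosphorylation had the highest share of genes higher in fertE. Of 38 tested genes of the respiratory chain and ATP synthase, 21 (55.3%) were higher and 5 (13.2%) lower in both replicate numbers, but none passed the test and the log2 fold changes ran from -0.16 to 0.24, with a median of 0.08. COX5B, a subunit of cytochrome c oxidase, had a TPM of 219 and 222 in unfE and of 265 and 280.0 in fertE. ATP5MG, a subunit of the ATP synthase, had 344 and 418 in unfE and 434 and 499.6 in fertE. In UQCRFS1, the Rieske protein of complex III, the stages overlapped in TPM, at 266 and 292 in unfE and 275 and 246.5 in fertE. In CPM scaled with TMM factors both fertE libraries of UQCRFS1 lay below both unfE libraries, with log2 ratios of -0.059 and -0.27.

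The translation machinery was also examined. Of 37 cytosolic ribosomal proteins, 9 were higher and 7 lower in both replicate numbers, and none passed the test. RPL34 had a TPM of 186 and 251 in unfE and of 259 and 280 in fertE. Among 35 translation factors 14 were higher and 6 lower, with the EEF1A1 match above as the only member that was 2-fold off in both. EIF3D, a subunit of the initiation factor that recruits the ribosome to mRNA, had 137 and 139 in unfE and 156 and 161 in fertE, with a log2 fold change of 0.13 ± 0.15 (SE).

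Genes of mRNA storage and decay stayed close to their egg level, as most genes did. In the list of poly(A) tail and mRNA decay, 14 of 58 tested genes were higher and 10 lower in both. All 57 members with a TPM of at least 10 stayed within 1.5-fold in both replicate numbers. Of all tested genes at that level 97.4% did, so the list was near the general share. UPF2, of the nonsense-mediated decay pathway, had a TPM of 61.7 and 65.2 in unfE and 58.0 and 61.6 in fertE. In the list of germ line and piRNA, 3 of 19 genes were higher and 6 lower in both. All 18 with a TPM of at least 10 stayed within 1.5-fold, again near the 97.4% of all tested genes.

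Maternal regulators, the transcription factors and signalling genes known or expected in the egg, were also near their starting level, as were most genes. Of 35 tested genes 7 were higher and 6 lower in both replicate numbers and none passed the test. The 24 with a TPM of at least 10 had log2 fold changes of -0.17 to 0.17. Of these, 20 stayed within 1.2-fold in both (83.3%, against 78.2% of all tested genes at that level). GSK3B, a kinase that marks beta-catenin for destruction, had a TPM of 218 and 279 in unfE and of 262 and 265 in fertE. AXIN1, the scaffold of the same complex, had 93.8 and 111 in unfE and 106 and 110.0 in fertE. NUMB, an inhibitor of Notch, had 140 and 162 in unfE and 137 and 169 in fertE. ACVR2B, an activin receptor, had 231 and 229.8 in unfE and 250.0 and 236 in fertE. TEAD4, the partner of the Hippo pathway's coactivators, had 45.5 and 71.7 in unfE and 60.6 and 76.6 in fertE, with a larger gap between replicates than between stages. Both fertE libraries lay below both unfE libraries in CPM for 3 of the 35 (LGR5, FOXK1 and ARID3A), a share near the 8.43% of all tested genes. FOXK1 overlapped in TPM, at 64.2 and 85.8 in unfE and 68.1 and 71.6 in fertE. LGR5 was under the detection limit, at 0.42 and 0.36 in unfE and 0.22 and 0.29 in fertE. ARID3A, a DNA-binding protein, had 2.87 and 2.66 in unfE and 2.48 and 2.52 in fertE (edgeR adjusted p = 1). Some regulators were scarce in both stages, such as TFAP2A, an ectodermal transcription factor, at 0.039 and 0.20 in unfE and 0.17 and 0.16 in fertE.

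The remaining lists likewise could hold no called gene. In the list of cortex, actin and secretion, 13 of 48 genes were higher and 8 lower in both, with the GSN and ACTG1 matches as the only members that were 2-fold off. The proteasome list had 10 of 29 higher and 7 lower, heat shock and chaperones 9 of 28 and 5, nuclear envelope and transport 6 of 39 and 9, chromatin and histones 5 of 33 and 6, and egg surface and secreted proteases 9 of 42 and 12. Sperm enter the egg at fertilization, and the list of sperm and motile cilium had a summed TPM of 1016 and 1105 in unfE and of 1070 and 1194 in fertE. These ranges overlapped, 10 of 48 tested members were higher and 9 lower in both, 40 of 49 were detected in all 4 libraries, and ODF3, an outer dense fibre protein of the sperm tail, was at 0 in all 4.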

How the data were processed

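Poly(A)-selected RNA of 4 of the 16 libraries was compared (2 of unfE, 2 of fertE). The authors trimmed reads with Trim Galore and quantified them with Salmon on the KY21 transcriptome. They deposited estimated counts per gene (29.3, 25.8, 30.4 and 32.7 M for unfE 1, unfE 2, fertE 1 and fertE 2), which were rounded here, and TPM, used as deposited. A deposited table of DESeq2-normalized values was not used. The stages were compared by edgeR 4.0.16 (R 4.3.3, TMM, filterByExpr by stage, all 16 libraries, 14643 rows, Benjamini-Hochberg, adjusted p under 0.05), checked on simulated data. SEs were derived from the fold change and the F statistic. Ratios per replicate number use log2 CPM with a prior count of 2. DESeq2 1.42.0 (all 16 libraries), limma 3.58.1, other scalings and filters, a replicate block and leave-outs were alternatives. Symbols (3826 genes) were taken from the nearest human match, or else frog match, in tables of the study that were held in part. The 20 gene lists, the members and the naming rule were chosen with earlier results of these data known. Genes were named by adjusted p, by the smaller of the 2 log2 ratios among genes with a TPM of at least 10 and no overlap (10 each way, and 8 with a symbol), by list (3 each by unadjusted p, all maternal regulators), by abundance (5 per stage), by DESeq2 or block p (6) and by crossing a TPM of 2 (5 each way). The list of blood and immune genes, and the lower genes described beyond this rule (BLVRB, PKHD1L1, ABAT, ITGB1, CRIP1, MATN2, TFF1, KY21.Chr1.2011, KY21.Chr3.1404 and KY21.Chr8.1048), were chosen after their values were seen. With 2 libraries per stage, p-values rest on a spread shared across stages. No sequence or position is given. Some genes that the naming rule takes are not reported here.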

Additional observations from a re-analysis of the deposited data

Results flagged for a closer look

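The row ENSCING00000025213, an Ensembl identifier outside the KY21 gene set and outside the comparisons above, took a large share of the transcripts. Its TPM was 253838 and 201520 in unfE (mean 227679 ± 36995, SD, n = 2) and 231243 and 172782 in fertE (mean 202013 ± 41338, SD, n = 2). It was singled out as a signal in data that the comparisons do not use. In both stages replicate 1 was higher than replicate 2, and the stages overlapped. TPM of all KY21 genes moves with this row, since each library is scaled to the same total.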

How the results depend on the processing

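The count of 1 called row was also obtained with RLE factors, library totals, no filter, at least 50 counts, KY21 rows only and without UAContig rows (the last chosen after seeing the data). It was 38 with DESeq2, 32 with DESeq2 and a replicate block, 0 with limma on log2(TPM+1), 2 with limma on log2(TPM+0.1), 0 with the 4 libraries alone and 0 with unfE, fertE and cell16. Leaving out 1 library gave 0 to 20 calls: 20 without unfE replicate 1, 1 without unfE replicate 2 and 0 without either fertE library. The log2 fold change of KY21.Chr11.627 ranged from -4.40 to -1.31 over 19 alternatives, and its adjusted p from 6.3e-06 to 1, under 0.05 in 12. A replicate block gave 1 call over 16 libraries, 0 with the 4 libraries and 1 with 3 stages, where the call was another gene, KY21.Chr7.730. Deviations of the replicates from the stage means correlated between unfE and fertE across genes (r = 0.56), but the numbers are not stated to pair the samples. The cause of these differences was not tested.

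The 48 higher and 161 lower genes became 5 and 28 with log2(TPM+1), 168 and 358 at 1.5-fold, 187 and 345 with a prior count of 0.5, 1 and 47 with a prior count of 10, and 1 and 16 with a TPM of at least 10. RLE factors (39 and 153), library totals (51 and 173) and leaving out UAContig rows (45 and 158) moved them less. Genes without overlap between stages numbered 1361 above and 1233 below, and 2197 and 799 with log2(TPM+1), where the median log2 difference of all genes was 0.05. With RLE factors the numbers were 1244 and 1333, and with library totals 1603 and 1097, so which direction is more frequent depends on the scaling. Genes crossing the detection limit numbered 23 up and 61 down at a TPM of 1, 9 and 16 at a TPM of 5 and 42 and 60 at 10 counts. Of the 48 and 161 genes, 40 and 83 had a TPM under 1 in the higher stage, where depth limits these counts.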

Other observations

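KY21.Chr7.730 was present in 3 of the 16 libraries. Its TPM was 0 in both unfE libraries and in fertE replicate 1, 26.3 in fertE replicate 2, 0 in cell16 replicate 1 and 42.7 in cell16 replicate 2, and 25.9 in replicate 1 and 0 in replicate 2 of the late neurula. It was at 0 in the other 8 libraries of the later stages. No fold is given for it. Among the egg libraries, KY21.UAContig49.15 and KY21.UAContig13.8 were highest in unfE replicate 1 and lowest in fertE replicate 1. KY21.UAContig49.15 had a TPM of 5483 in unfE replicate 1, 1311 in unfE replicate 2, 264 in fertE replicate 1 and 2018 in fertE replicate 2, and KY21.UAContig13.8 had 4268, 1002, 171 and 831 in these libraries.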
